A study of Caenorhabditis elegans with 2 samples.

Results

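The peaks described here lay at genes for small non-coding RNAs: transfer RNAs (tRNAs), small nucleolar RNAs (snoRNAs) and small nuclear RNAs (snRNAs). They came from a ChIP-seq experiment, chromatin immunoprecipitation followed by sequencing, on ATF-7, a transcription factor of the bZIP family in the nematode *Caenorhabditis elegans*. A peak was chosen when its summit lay within 200 bp of a gene of one of these biotypes on a nuclear chromosome in the Ensembl annotation of WBcel235, the assembly of build ce11. Of the 2247 peaks that the authors kept at their threshold on the irreproducible discovery rate (IDR), 288 met this rule (12.8%, exact 95% interval 11.5 to 14.3). Among them 183 lay at tRNA genes, 82 at snoRNA genes and 24 at snRNA genes, with 1 peak within reach of 2 biotypes.

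All libraries came from 1 group, young adult whole worms of both sexes from strain OP638, synchronised by bleaching and starvation at the L1 larva. The genotype is unc-119(tm4063) III; wgIs638, where wgIs638 is a transgene, carried by this 1 line, that gives ATF-7 a GFP-FLAG tag at its C terminus. The 2 samples are biological replicates 2 and 3. The written description names anti-GFP as the antibody used, whereas the antibody entry reads atf-7. No untagged or mock sample was analysed here, and the files do not give the read depth, so the binding can be compared only between genes and between replicates. How far the signal at these genes depends on the tagged protein was not tested, and the sources used here do not say whether regions that collect reads in many ChIP-seq experiments, among which tRNA genes are known, were removed. The word bound below therefore means only that an IDR summit lay nearby.

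tRNA genes are transcribed by RNA polymerase III from promoters inside the gene, an A box in the first part and a B box in the second, which are bound by the factor TFIIIC. U6 snRNA is also a product of polymerase III, whereas U1, U2, U4 and U5 snRNAs and the spliced leader RNAs SL1 and SL2, which donate the leader of trans-spliced messages in nematodes, are products of polymerase II. snoRNAs guide the modification of ribosomal and spliceosomal RNA, and many are cut out of introns of host genes. ATF and CREB family factors are known for binding the cyclic-AMP response element (CRE) TGACGTCA at genes of polymerase II.

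The upstream stretches of some snoRNA genes are shown because they carried the B box word of tRNA genes. Capitals mark the B box word GTTCGA and, before it, the last match to the A box word TGGNNNAG where one was found. In Y59E1B.14 an earlier match to the A box word, tggccaag, directly before the marked one, is left in lower case. The sequences are the 100 bp before each gene, read on its strand from the RefSeq copy of WBcel235. The bound genes shown are C51F7.3 (chrV:12303608-12303707, plus strand), W03C9.9 (chrII:11960798-11960897, plus strand), C41C4.11 (chrII:8107271-8107370, minus strand), T06C12.16 (chrV:15873927-15874026, minus strand), F32E10.10 (chrIV:7574022-7574121, plus strand), M106.6 (chrII:10840217-10840316, plus strand) and F55A11.10 (chrV:11782892-11782991, plus strand).
C51F7.3: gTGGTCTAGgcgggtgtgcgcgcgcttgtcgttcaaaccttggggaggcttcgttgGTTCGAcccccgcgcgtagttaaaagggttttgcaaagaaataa
W03C9.9: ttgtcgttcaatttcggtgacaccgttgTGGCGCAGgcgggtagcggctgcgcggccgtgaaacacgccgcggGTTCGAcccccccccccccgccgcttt
C41C4.11: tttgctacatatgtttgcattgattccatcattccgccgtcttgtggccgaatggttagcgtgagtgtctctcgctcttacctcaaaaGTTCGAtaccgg
T06C12.16: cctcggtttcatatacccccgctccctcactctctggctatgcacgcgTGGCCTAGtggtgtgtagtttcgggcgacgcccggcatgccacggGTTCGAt
F32E10.10: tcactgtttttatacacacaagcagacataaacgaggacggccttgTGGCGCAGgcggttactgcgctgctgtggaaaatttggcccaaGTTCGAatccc
M106.6: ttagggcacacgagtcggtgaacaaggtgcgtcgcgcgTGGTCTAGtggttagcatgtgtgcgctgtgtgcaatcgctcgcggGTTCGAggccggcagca
F55A11.10: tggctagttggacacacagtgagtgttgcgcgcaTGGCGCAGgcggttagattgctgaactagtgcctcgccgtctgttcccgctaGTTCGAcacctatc
For contrast, ZK546.18 (chrII:4942520-4942619, minus strand) and Y59E1B.14 (chrX:1891409-1891508, plus strand) held both words and had no IDR peak.
ZK546.18: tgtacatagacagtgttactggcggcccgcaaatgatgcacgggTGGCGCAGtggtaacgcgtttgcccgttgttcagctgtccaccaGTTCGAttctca
Y59E1B.14: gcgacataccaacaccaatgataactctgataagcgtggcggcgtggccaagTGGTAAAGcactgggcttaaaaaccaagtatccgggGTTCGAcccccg

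Bound tRNA genes are shown for the B box word in its usual place, inside the gene, with GTTCGA in capitals. The A box word was not searched in them. These are the isoleucine gene F57F5.t1 (chrV:12002176-12002260, plus strand), the lysine gene C33G3.t2 (chrX:14063946-14064018, minus strand), the arginine gene C18A11.t2 (chrX:8036685-8036757, minus strand) and the glutamine gene R04A9.t1 (chrX:410391-410462, plus strand). The glutamine gene has gttcaa at the place of GTTCGA and so holds no match.
F57F5.t1: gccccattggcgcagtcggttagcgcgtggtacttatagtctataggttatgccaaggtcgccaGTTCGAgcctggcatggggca
C33G3.t2: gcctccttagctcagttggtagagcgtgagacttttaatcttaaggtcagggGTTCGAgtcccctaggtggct
C18A11.t2: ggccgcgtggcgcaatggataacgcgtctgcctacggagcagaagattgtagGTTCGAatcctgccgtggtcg
R04A9.t1: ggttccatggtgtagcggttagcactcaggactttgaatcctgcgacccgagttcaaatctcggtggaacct

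For the snRNA genes, 1 bound gene of each of 2 classes is shown with the word that assigned it or marks its RNA. SL2 RNA gene sls-2.1 (chrII:5844865-5844974, plus strand) has the Sm-type word ATTTTTG in capitals, and sup-6 (chrII:12944803-12944967, minus strand) the U1 word CTTACCTG.
sls-2.1: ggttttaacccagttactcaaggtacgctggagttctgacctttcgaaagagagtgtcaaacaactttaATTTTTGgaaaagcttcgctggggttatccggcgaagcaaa
sup-6: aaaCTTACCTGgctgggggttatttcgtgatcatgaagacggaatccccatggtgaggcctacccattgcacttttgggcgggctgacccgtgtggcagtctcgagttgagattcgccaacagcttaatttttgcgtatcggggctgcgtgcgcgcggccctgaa

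Over the whole IDR list tRNA genes were bound more often than snoRNA and snRNA genes, but among the 1123 IDR peaks of highest signal tRNA and snoRNA genes were both at 16.2%. A gene is called bound here when an IDR summit lay within 200 bp of it. This held for 201 of 612 tRNA genes (32.8%, exact 95% interval 29.1 to 36.7), 80 of 346 snoRNA genes (23.1%, 18.8 to 27.9) and 19 of 129 snRNA genes (14.7%, 9.11 to 22.0). The intervals of tRNA and snRNA genes did not overlap, and those of tRNA and snoRNA genes did not overlap either, while those of snoRNA and snRNA genes did. These intervals are for the whole list. Among the 1123 peaks of highest signal snRNA genes were at 10.9%, and no intervals are given for that shorter list. As background, an IDR summit lay within 200 bp of the 5′ end of 2.45% of 19973 protein-coding genes. The share was 4.21% of 261 miRNA genes, 0.163% of 15363 piRNA genes and 5.78% of 7764 other non-coding RNA genes. These windows are not of equal width, since the gene body is added for the RNA genes.

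The same 3 biotypes took up little of the genome. The bases within 200 bp of a tRNA gene made up 0.272% of the nuclear genome and held 8.14% of the IDR peaks, a ratio of 29.9. For snoRNA genes the ratio was 20.1 and for snRNA genes 16.3. At the relaxed threshold, where the authors listed 30000 peaks from the pooled reads, 76.3% of tRNA genes, 52.0% of snoRNA genes and 48.1% of snRNA genes had a summit within 200 bp, against 17.7% of protein-coding 5′ ends. Each replicate by itself gave 72.4% and 76.6% of tRNA genes, 46.0% and 51.4% of snoRNA genes, and 41.9% of snRNA genes in both, in the order of replicates 2 and 3.

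**Figure D1:**
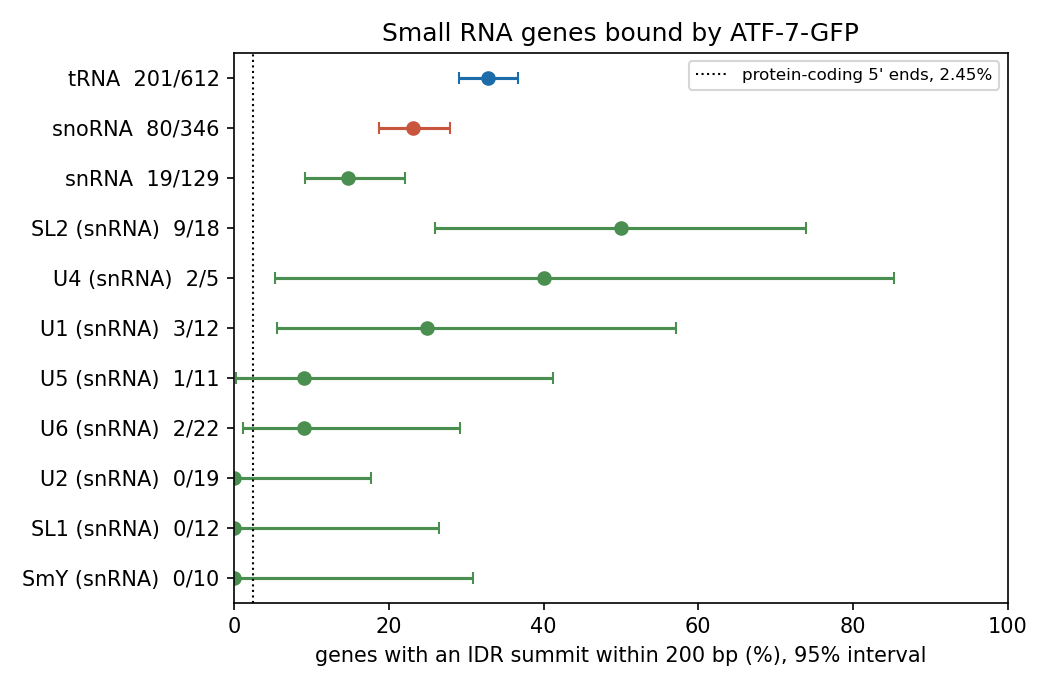
Percentage of small RNA genes with an IDR summit within 200 bp, by biotype and by snRNA class, with exact 95% intervals for counting error and the number bound of all genes at the left. The dotted line marks the 2.45% of protein-coding 5′ ends. tRNA genes sat at 32.8% and SL2 genes at 50%, while no U2, SL1 or SmY gene of the snRNA biotype was bound.

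Few summits lay near the limit of 200 bp. The farthest members had summits 160, 164 and 185 bp from a gene, with pooled signals of 114.8, 371 and 281. The nearest peaks outside lay at 206, 222 and 229 bp, with signals of 568, 106 and 147. The first of these lay on chromosome X beside the arginine tRNA gene C18A11.t2, which also had a member peak, with a signal of 281. The signal is the authors' own value per peak, relative to a control, and each list has its own scale.

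In strength the tRNA peaks resembled the other IDR peaks, and the snoRNA and snRNA peaks stood higher. The median pooled signal was 143 at tRNA genes (quartiles 117 and 181, range 105 to 382), 178 at snoRNA genes (134 and 242, range 108 to 573) and 220 at snRNA genes (150 and 302, range 116 to 585). The other 1959 IDR peaks had a median of 147 (122 and 203) and reached 1586. In the list of replicate 2 the medians were 55.8, 70.9 and 84.1 for the 3 biotypes and 58.3 for the other peaks. Replicate 3 gave 88.6, 122 and 133, and 96.2 for the other peaks. The order of the 3 biotypes was the same in both replicates, and the quartile ranges of all groups overlapped.

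Recovery in the single replicates was high, as the IDR list was derived from them. A summit in both replicates within 100 bp of the IDR summit was present for 171 of 183 tRNA peaks (93.4%), 75 of 82 snoRNA peaks (91.5%) and 22 of 24 snRNA peaks (91.7%), beside 93.2% of the other peaks. Replicate 2 lacked such a summit for 9 tRNA peaks, 3 snoRNA peaks and 1 snRNA peak, and replicate 3 for 3, 4 and 1. The strongest examples were the SL2 gene sls-2.4 on chromosome I (pooled signal 585, 221 in replicate 2), the U6 gene W05B2.8 (424, with 280 in replicate 3) and the isoleucine tRNA gene F57F5.t1 (321, with 193 in replicate 3). Each of these 3 genes had a second IDR peak that was found in both replicates.

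**Figure D2:**
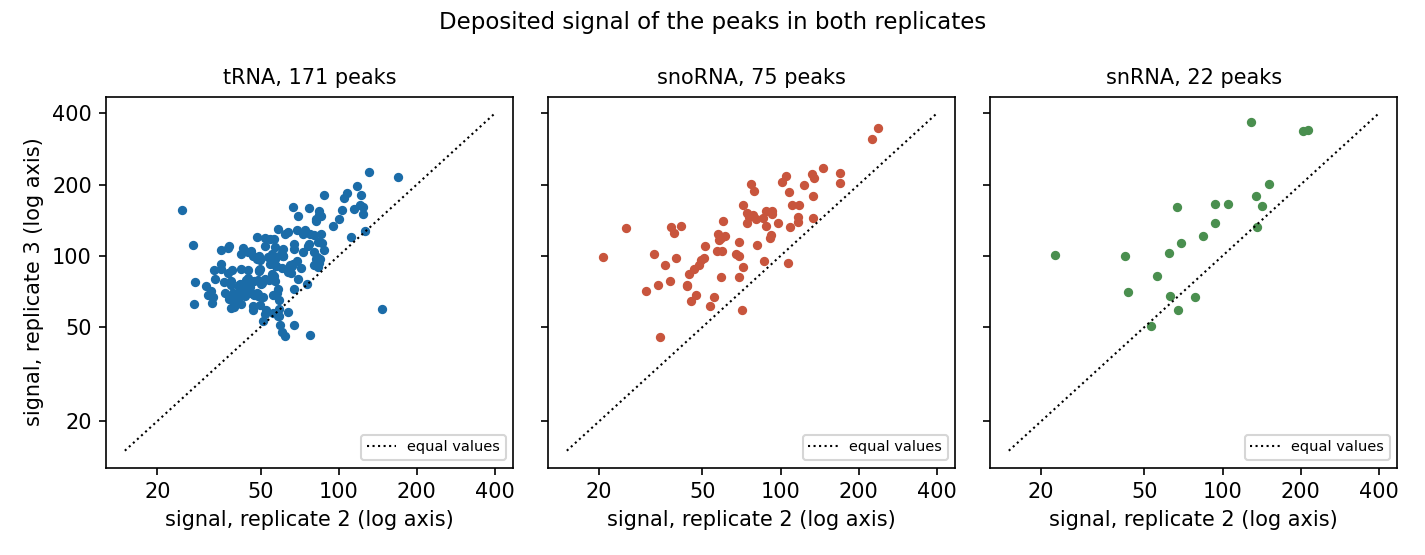
Deposited signal in replicate 2 (x axis) and replicate 3 (y axis), both on log axes, of each peak with a summit in both within 100 bp, one point per peak and a dotted line at equal values. Most of the 171 tRNA, 75 snoRNA and 22 snRNA peaks lie above the line, with median log2 ratios of replicate 3 over 2 of 0.70, 0.77 and 0.61, beside 0.78 in the other peaks. Signals of the replicates were not brought to a common scale, and whether the offset holds any difference in binding was not tested.

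Where the summit lay differed between the biotypes. tRNA summits centred on the gene, with a median of 31 bp after the 5′ end (quartiles -18.5 and 62.5) in genes whose median length was 72 bp. They lay inside the gene in 92 of 183 peaks (50.3%), upstream in 59 (32.2%) and downstream in 32 (17.5%). snoRNA summits lay upstream in 52 of 82 peaks (63.4%, 52.0 to 73.8), inside in 20 and downstream in 10, with a median of -16.5 bp. The 52 upstream snoRNA peaks had a median signal of 212, the 20 inside 161 and the 10 downstream 136.

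snRNA summits had no single place. Of the 24 peaks 5 lay upstream, 6 inside and 13 downstream of the gene, with a median of 153.5 bp after the 5′ end and a median length of 109 bp over all snRNA genes. In 6 of the 18 genes nearest to these peaks there were 2 IDR peaks, whose summits were 200 to 215 bp apart, and 12 of the 24 peaks overlapped another IDR peak (50%, beside 7.35% of the other IDR peaks). The usual width of a deposited peak was 436 bp. Whether such a pair stands for 1 or 2 binding places cannot be told apart from the peak lists.

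**Figure D3:**
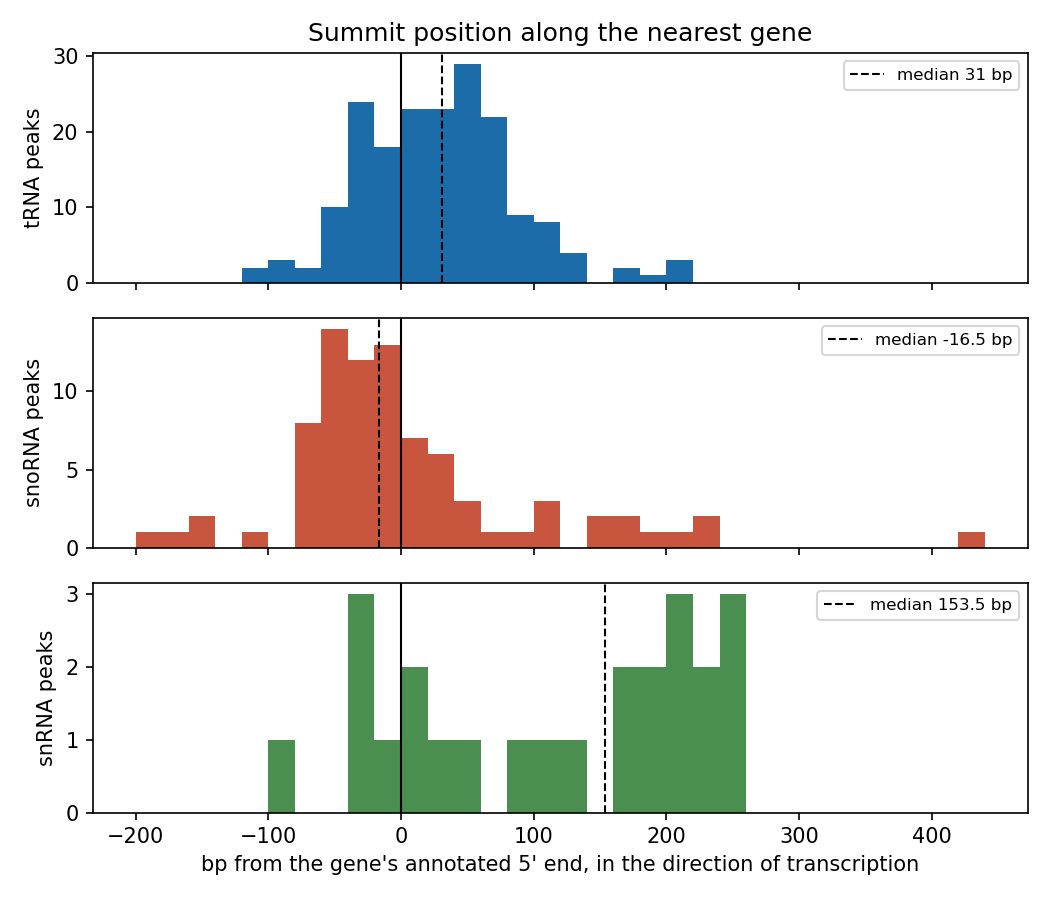
Number of peaks (y axis) by the distance of the summit from the annotated 5′ end of the nearest gene, in bp in the direction of transcription (x axis, bins of 20 bp), in 1 panel per biotype. The solid line is the 5′ end and the dashed line the median. tRNA summits spread over the gene around 31 bp, snoRNA summits gather before the 5′ end around -16.5 bp, and snRNA summits fall near the start and again past 160 bp.

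The strongest tRNA peak lay on chromosome X at 3035993 to 3036300, outside protein-coding genes, between the glycine gene M02F4.t1 and the glutamate gene M02F4.t2. Its signal was 382 for the pooled reads, with 169 in replicate 2 and 216 in replicate 3, and it ranked 122 of all IDR peaks. At W09G10.t2 (lysine) and W09G10.t3 (threonine), on chromosome II at 3519072 to 3519325, the signals were 350, 131 and 227. F57F5.t1 (isoleucine, V) came next with 321 pooled. Both sites with a summit in each replicate ranked between 88 and 164 there.

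The others of the 10 strongest were R04A9.t1 (glutamine, X, in an intron of hrg-11.4 on the other strand, signal 313), T03E6.t1 (glutamine, V, 301) and C33G3.t2 (lysine, X, 296). They went on with C28G1.t1 (glutamate, X, 287), C18A11.t2 (arginine, X, 281), C04A11.t1 (leucine, X, 277.5) and F41D9.t3 (asparagine, X, in an intron of sulp-3, 276). Of these 10 peaks 7 lay on X, beside 91 of all 183 tRNA peaks (49.7%). The 10 summits ran from 102 bp before the 5′ end of the gene to 108 bp after it. The weakest 5 were at Y4C6B.t2 (tryptophan, IV, 105), K02D7.t1 (aspartate, IV, 105), F14F7.t1 (threonine, III, 105), Y105C5B.t4 (aspartate, IV, 105) and F53F8.t1 (cysteine, V, 106), all at the lower end of the IDR list.

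Isotypes, the amino acids that tRNAs carry, were bound at shares that overlapped widely. The RefSeq annotation gave an isotype for 607 of the 612 genes, and neither the 5 without one nor the 1 selenocysteine gene was bound. Among the 20 standard isotypes the share was highest for cysteine, with 7 of 13 genes (53.8%, 25.1 to 80.8), then alanine and threonine, each with 16 of 34 (47.1%, 29.8 to 64.9). It was lowest for asparagine, with 3 of 20 (15%, 3.21 to 37.9), and histidine, with 4 of 20 (20%, 5.73 to 43.7). Even the cysteine and asparagine intervals overlapped, and every isotype's interval held the 32.8% of all tRNA genes.

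The order of isotypes also depended on the replicate. With the 2247 strongest peaks of replicate 2 in place of the IDR list, histidine stood at 0 of 20 genes, phenylalanine at 14.3% in place of 28.6%, aspartate at 25.9% in place of 40.7% and asparagine at 25%. With those of replicate 3, tryptophan stood at 0 of 12 genes in place of 3, and methionine at 25% in place of 40%. Tryptophan had 8.33% in the list of replicate 2. Alanine had the highest share in both lists, with 44.1% and 41.2%. Among the signals, cysteine peaks had a median of 124 over 7 peaks, alanine peaks 151 over 15 and tyrosine peaks 196 over 5.

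**Figure D4:**
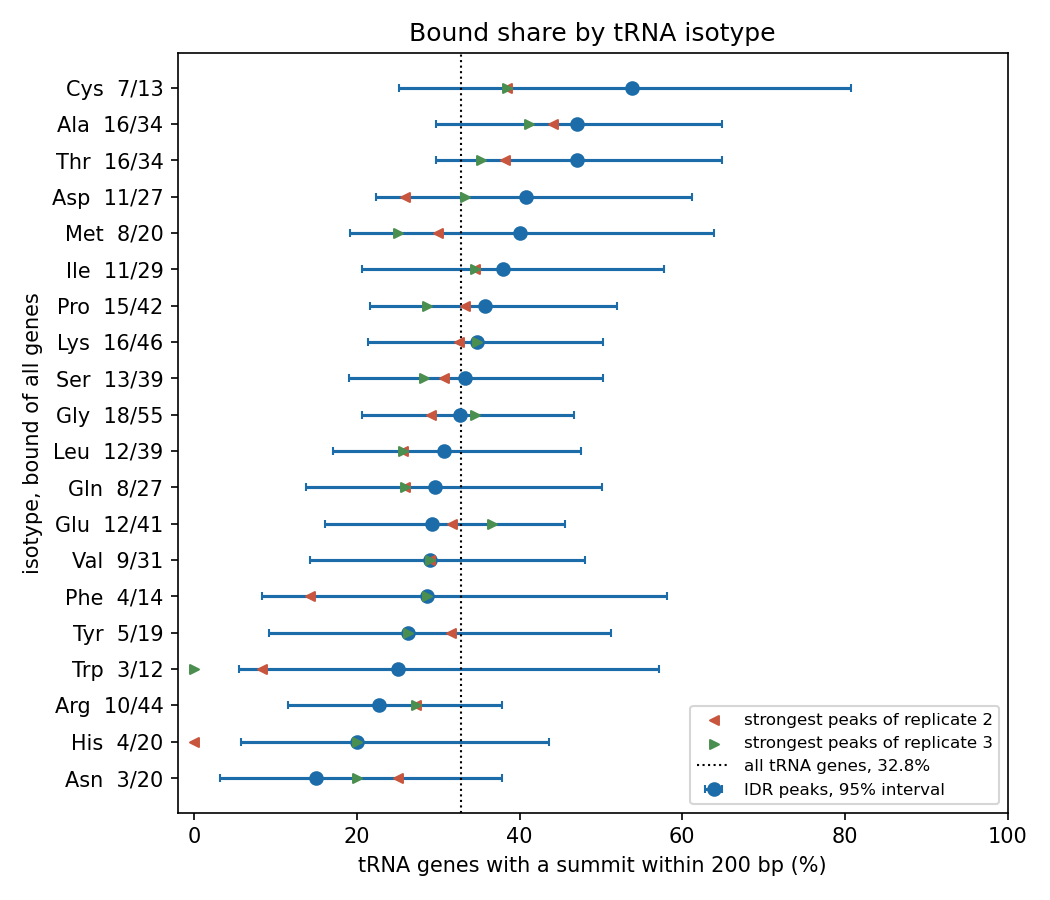
Percentage of tRNA genes of each isotype with a summit within 200 bp (x axis), from the IDR peaks (circles, exact 95% intervals for counting error) and from the 2247 strongest peaks of each replicate (triangles). The number bound of all genes stands beside each isotype, and the dotted line is the 32.8% of all tRNA genes. All circles' intervals reach this line, and the triangles of histidine and tryptophan drop to 0 in 1 replicate each.

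Repeated sequence is common among tRNA genes, and reads from identical copies cannot be assigned by the gene itself. The 612 genes held 200 distinct sequences, and 469 genes had at least 1 identical copy. Of these 469, 168 were bound (35.8%, 31.5 to 40.3), beside 33 of 143 genes with no identical copy (23.1%, 16.4 to 30.9). When each distinct sequence was counted once, as bound if any copy was, the share was 39.5%. The sources used here do not say how reads with several matches were placed, and the part of such reads in these shares was not tested.

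tRNA genes near to and far from promoters of protein-coding genes were bound at like shares. Of those with a protein-coding 5′ end within 1000 bp 73 of 223 were bound (32.7%), and of those farther away 128 of 389 (32.9%). With another tRNA gene within 500 bp the share was 31.8%, and without one 33.3%. In all, 42 of the 183 tRNA peaks (23.0%), 24 of 82 snoRNA peaks (29.3%) and 3 of 24 snRNA peaks (12.5%) had a protein-coding 5′ end within 500 bp of the summit, in contrast to 875 of the 1959 other peaks (44.7%, 42.4 to 46.9).

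Host introns held many of these genes. A tRNA gene in an intron of a protein-coding gene was bound in 42 of 160 cases on the strand of its host (26.2%, 19.6 to 33.8) and in 45 of 122 on the other strand (36.9%, 28.3 to 46.1). Outside protein-coding genes it was 111 of 320 (34.7%, 29.5 to 40.2). For snoRNA genes the shares were 28 of 142 on the host's strand (19.7%, 13.5 to 27.2), 8 of 27 on the other strand (29.6%) and 35 of 124 outside (28.2%, 20.5 to 37.0). In snRNA genes they were 6 of 35, 2 of 20 and 11 of 63. Within each biotype these intervals overlapped.

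Chromosome X carried 276 of the 612 tRNA genes (45.1%), and 102 of them were bound (37.0%, 31.2 to 42.9), beside 99 of 336 on the autosomes (29.5%, 24.6 to 34.7). The lowest share was on V, with 18 of 78 (23.1%, 14.3 to 34.0). Of the peaks, 91 of the 183 at tRNA genes lay on X (49.7%, 42.3 to 57.2), while X held 20.3% of the other IDR peaks. snoRNA genes on X were bound in 2 of 33 cases (6.06%, 0.743 to 20.2), beside 78 of 313 on the autosomes (24.9%, 20.2 to 30.1). Their share was highest on V, with 19 of 55 (34.5%). The intervals of X and the autosomes overlapped for tRNA genes and met at 20.2% for snoRNA genes.

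The strongest snoRNA peak lay on chromosome V at 8500395 to 8500703, 33 bp upstream of ZK994.7, in an intron of the peroxidasin gene pxn-1. Its signal was 573 for the pooled reads, with 237 in replicate 2 and 346 in replicate 3. Next came the peak at C51F7.3 and C51F7.4, neighbouring snoRNA annotations within frm-7 on V, with 535, 226 and 312, and that at T03F7.8 on V with 391, 169 and 225. The first and the second ranked 39 and 54 among all IDR peaks.

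The 12 strongest went on with Y75B12B.12 (V, 386), F17C11.24 (V, 371), Y53F4B.47 (II, 354), W03C9.9 (II, 351), Y23H5B.10 (I, 330), Y74C9A.6 (I, 319), C41C4.11 (II, 316), F07A11.15 (II, in din-1, 299.7) and F59C6.15 (I, 286). Of these genes 8 lay outside protein-coding genes, beside 35 of all 80 bound snoRNA genes. The summit was upstream of the gene in 8 of the 12, beside 52 of all 82 snoRNA peaks (63.4%). Short snoRNA genes were bound more often, a split made after the values were seen. Under 100 bases 41 of 93 genes were bound (44.1%, 33.8 to 54.8), and at 100 bases or more 39 of 253 (15.4%, 11.2 to 20.5).

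snoRNA genes with a B box word upstream were bound more often than the others. This split was also chosen after the words at the peaks had been seen, and it is given as a description. On the strand of the gene, GTTCGA occurred in the 100 bp upstream of 24 of 346 snoRNA genes (6.94%), beside 285 of 19973 protein-coding genes (1.43%). Of these 24 genes 17 were bound (70.8%, 48.9 to 87.4), and of the other 322 genes 63 (19.6%, 15.4 to 24.3). With the A box word TGGNNNAG before GTTCGA there were 16 snoRNA genes, of which 12 were bound (75%, 47.6 to 92.7), and 11 protein-coding genes (0.0551%). The sequences of 6 of these 12, and of C41C4.11 with the B box word alone, are those shown above, such as W03C9.9 with TGGCGCAG and GTTCGA.

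The word lay close to the gene, and summits lay on both sides of it. In the 17 bound genes GTTCGA began at a median of -15 bp from the gene's first base (range -44 to -7). The summit lay at a median of -33 bp from the first base of the word, where negative means upstream (quartiles -38 and -2, range -63 to 42). Of the genes under 100 bases 13 of 16 were bound with the word (81.2%, 54.4 to 96.0) and 28 of 77 without (36.4%, 25.7 to 48.1). Of the longer genes it was 4 of 8 (50%, 15.7 to 84.3) and 35 of 245 (14.3%, 10.2 to 19.3), and these intervals overlapped. In introns on the strand of the host 8 of 12 genes with the word were bound (66.7%, 34.9 to 90.1) and 20 of 130 without (15.4%, 9.66 to 22.8), and outside protein-coding genes 8 of 10 (80%, 44.4 to 97.5) and 27 of 114 (23.7%, 16.2 to 32.6). None of the 24 upstream stretches overlapped an annotated tRNA gene. That of Y59E1B.14 overlapped an annotated pseudogene, that of C51F7.3 the neighbouring snoRNA gene C51F7.4, and 5 overlapped an annotated non-coding RNA gene.

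Signals at the genes with the word covered a wide range. Over the 24 genes the pooled relaxed list gave a summit within 200 bp for 21, replicate 2 for 21 and replicate 3 for 20. C51F7.3 was highest with 535, followed by W03C9.9 with 351 for the pooled reads, with 134 in replicate 2 and 212 in replicate 3, and C41C4.11 with 316, 134 and 179. M106.6, in an intron of mix-1, had 234.9, 71.4 and 164, and F32E10.10 245, 92.6 and 155. Of those not bound, ZK546.18 had a relaxed peak of 73.2 and Y59E1B.14 had none, although both held the 2 words. The 63 bound genes without GTTCGA included the strongest snoRNA peak, at ZK994.7, and made up 63 of the 80 bound snoRNA genes.

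Among the words searched within 100 bp of the summit on both strands, GTTCGA was more frequent at tRNA and snoRNA peaks than at the other IDR peaks. It was present in 119 of 183 tRNA peaks (65.0%, 57.6 to 71.9), 18 of 82 snoRNA peaks (22.0%, 13.6 to 32.5) and 3 of 24 snRNA peaks (12.5%, 2.66 to 32.4), beside 7.30% of the other IDR peaks, a share within the snRNA interval. Of the snRNA peaks with the word, that at sls-2.9 also lay within 200 bp of the tRNA gene M01E5.t1. In windows centred 500 bp to the lower and the higher side of the tRNA summits it was present in 6.56% and 8.20%, and of the snoRNA summits in 8.54% on both sides. At tRNA genes the word is part of the gene that the rule used: 442 of 612 hold it, and 135 of these were bound (30.5%, 26.3 to 35.1), beside 66 of 170 without it (38.8%, 31.5 to 46.6).

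The CRE was rare at these peaks. It was present at 5 tRNA peaks (2.73%, 0.893 to 6.26), 1 snoRNA peak (1.22%, 0.0309 to 6.61) and no snRNA peak (upper limit 14.2%), beside 214 of the 1959 other IDR peaks (10.9%, 9.58 to 12.4). In the windows centred 500 bp to the lower and the higher side the CRE was at 0.546% and 2.19% for tRNA peaks. For snoRNA peaks these shares were 0% and 1.22%. In the 2247 strongest peaks of replicate 2 alone the share was 1.24% at tRNA and 2.82% at snoRNA genes, and in those of replicate 3 it was 1.82% and 0%. The 5 tRNA peaks were at F56F4.t1 (tyrosine, I, signal 236), W09G10.t2 (its weaker peak, 175), F14B6.t1 (methionine, I, 117), Y92C3A.t3 (isoleucine, III, 112) and Y4C6B.t2 (tryptophan, IV, 105). The snoRNA peak was at Y74C9A.6 on I. The shorter word TGACG, which is part of the CRE, occurred at 16.9% of tRNA peaks, 29.3% of snoRNA peaks and 20.8% of snRNA peaks, and at 43.3% of the other peaks, with 20.2% and 16.4% in the flanks of tRNA peaks and 12.2% and 24.4% in those of snoRNA peaks.

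The E-box and the GATA word were also less common here than at the other IDR peaks. The E-box CACGTG occurred at 2 tRNA peaks (1.09%, 0.133 to 3.89) and 2 snoRNA peaks, beside 13.4% (11.9 to 15) of the other peaks. In the flanks the E-box occurred at 4.92% and 4.37% for tRNA peaks, and at 6.10% and 3.66% for snoRNA peaks. The GATA word TGATAA occurred at 16.9% of tRNA and 13.4% of snoRNA peaks, beside 30.0% (28.0 to 32.1), and its share in the tRNA flanks was 17.5% and 24.0%. The GA repeat GAGAGAGA occurred at 5.46% of tRNA peaks (2.65 to 9.82) and 3.66% of snoRNA peaks (0.761 to 10.3), intervals that overlap that of the other peaks (9.49%, 8.23 to 10.9). In the flanks of tRNA peaks it occurred at 2.19% and 1.09%. None of these 3 words was found at the 24 snRNA peaks, which leaves a share of up to 14.2%. The base composition moved with this, since G and C made up a median of 46.3% of the window at tRNA peaks and 49.3% at snoRNA peaks, beside 41.8%, and its part in the word shares was not tested.

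**Figure D5:**
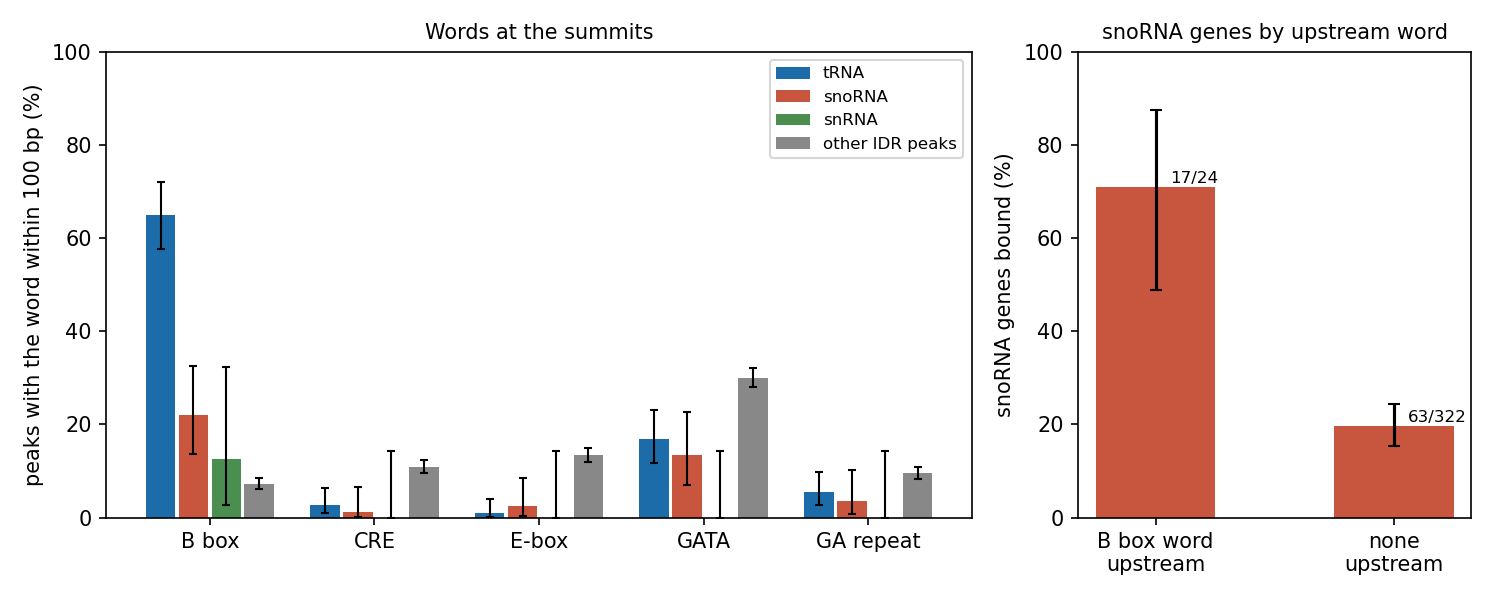
Left, percentage of peaks (y axis) with each word within 100 bp of the summit on either strand, by group of peaks, with exact 95% intervals for counting error. Right, percentage of snoRNA genes bound (y axis) with and without the B box word on the gene's strand in the 100 bp upstream, with the counts beside the bars. The B box word reached 65.0% at tRNA peaks while the CRE stayed at 2.73%, and 17 of 24 snoRNA genes with the upstream word were bound. The B box word is part of 442 of all 612 tRNA genes, by which the tRNA peaks were chosen. The split on the right was made after the words at the peaks had been seen.

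By polymerase class, 203 of 634 genes known as polymerase III products, the tRNA and U6 genes, were bound (32.0%, 28.4 to 35.8). Of 91 snRNA-biotype genes of polymerase II classes, among them 4 unnamed genes with the Sm-type word, 15 were bound (16.5%, 9.53 to 25.7). These intervals, for the whole IDR list, did not overlap. The shares of the 2 polymerase classes were not computed among the 1123 IDR peaks of highest signal, so whether they differ there was not tested. In that shorter list tRNA genes, which make up most of the polymerase III class, were at 16.2% and snRNA genes at 10.9%. Within the polymerase III class, however, U6 genes were bound in 2 of 22 cases (9.09%, 1.12 to 29.2), and within polymerase II SL2 genes in 9 of 18 (50%, 26.0 to 74.0). snoRNA genes were kept apart, since both polymerases have been described for them in this nematode, and their 23.1% lay between the 2 classes.

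SL2 RNA genes led the snRNA biotype, and they supplied 12 of its 24 peaks. The strongest was sls-2.4 on chromosome I (signals 585 and 416 for its 2 peaks), followed by sls-2.1 on II with 552 for the pooled reads, with 213 in replicate 2 and 339 in replicate 3, and sls-2.2 on II with 539, 204 and 337. sls-2.8 on III had peaks of 277 and 175, and the second had 22.6 in replicate 2 and 101 in replicate 3. Weaker were sls-2.9 on I (214, a peak shared with the tRNA gene M01E5.t1), sls-2.16 on III in an intron of glr-2 (171), sls-2.14 (131) and sls-2.15 (130) on III in introns of W09D6.5, and sls-2.7 on I (116). The strongest 2247 peaks of replicate 2 lay at 9 SL2 genes, and those of replicate 3 at 8. Of the 12 SL1 genes none was bound or had a relaxed peak (0%, upper limit 26.5%). SL1 was the only snRNA class with no summit in the pooled relaxed list. The sources used here do not say how reads with several matches were placed. Whether reads at SL1 genes could be placed was not tested, so the SL1 and SL2 shares may not be comparable.

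Spliceosomal snRNA genes were bound in few copies of each class. The U1 genes bound were sup-6 on II (signals 354 and 276), sup-39 on II (164) and T08G5.11 on V (123), or 3 of 12. The U4 genes were C52E4.8 (227) and F10D2.13 (122) on V, or 2 of 5, and the single U5 gene of 11 was F38E11.10 on IV (263 and 149). U6 was represented by W05B2.8 on III, in an intron of dhc-4 (424 and 285), and F54D8.7 on III (207). None of the 19 U2 genes was bound by an IDR peak (upper limit 17.6%), although 12 of them had a summit in the pooled relaxed list and 1 among the strongest peaks of replicate 3.

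The remaining snRNA-biotype genes bound were M163.13 on X (150), which fell in no class, and mir-1831, a miRNA annotation of 22 bases inside sup-39 that carries the snRNA biotype and shares its peak. Of the 10 SmY genes of the snRNA biotype, nematode RNAs linked to trans-splicing, none was bound (upper limit 30.8%). The 2 SmY genes that the annotation puts among snoRNAs were bound, smy-2 on IV (pooled signal 158, with 51.3 in replicate 2 and 110 in replicate 3) and smy-3 on V (142, 48.3 and 91.3). Identical copies were frequent here too, since W05B2.8 shares its sequence with other U6 genes. Of the 44 snRNA genes with an identical copy 4 were bound (9.09%), and of the 85 without one 15 (17.6%, 10.2 to 27.4).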

How the data were processed

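Per the labels and the deposited listings, the authors called relaxed peaks for replicate 2 (28126), replicate 3 (30000) and the pooled reads (30000), with a control, and obtained 2247 IDR peaks. The sources used here name no aligner, peak caller or IDR cutoff. The deposited signal is the authors' value per peak. It was used to rank and describe peaks within a list. Intervals are exact Clopper-Pearson intervals at 95% and cover counting error only, and read depth is unknown. Lists were in build ce11 and coordinates count from 1.

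Summits were joined to Ensembl release 115 genes of WBcel235, the assembly of ce11, and all peaks lay within its chromosome lengths. Symbols and isotypes came from RefSeq by WormBase ID (1087 of 1087 genes). The 22 mitochondrial tRNA genes were left out. snRNA genes were classed by symbol (sls-1, sls-2, smy) and otherwise by a word in the gene: CTTACCTG for U1, GTAGTAT for U2, AGCTTTGC for U4, CCTTTTAC for U5 and ACAGAGA for U6. Join, offsets and intervals were checked on simulated summits. Tables were made in Python 3.11.15 with NumPy 2.4.6, pandas 2.3.3, SciPy 1.17.1 and matplotlib 3.10.9. With 1 group of 2 replicates no test was made.

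The genes named are those nearest to the 10 strongest and 5 weakest tRNA peaks, tRNA peaks with a CRE, all snRNA members, the 12 strongest snoRNA peaks, and the extreme isotypes. Genes with upstream words and the SmY genes were named after their values were seen. The members and lists were chosen with earlier results of these data known. Alternatives used other distances, the 1123 strongest IDR peaks, the strongest 2247 peaks of 1 replicate, merged peaks, and other words and windows.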

Additional observations from a re-analysis of the deposited data

How the results depend on the processing

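Of 169 values under an alternative, 145 stayed within the main value's interval or spread (counts within 1.5 times), and no single value changed direction. Member peaks fell from 288 to 118 when the summit had to be inside the gene and to 160 with the 1123 IDR peaks of highest signal. That shorter list gave 16.2% of tRNA genes and 16.2% of snoRNA genes, so the order of these 2 biotypes did not hold there. It gave 10.9% of snRNA genes. The longer relaxed pooled list gave 76.3% of tRNA, 52.0% of snoRNA and 48.1% of snRNA genes. Identical tRNA sequences counted once gave 39.5%. Summits within 50 bp in both replicates were found for 69.4% of tRNA, 72.0% of snoRNA and 54.2% of snRNA peaks, and within 200 bp for 97.8%, 98.8% and 100%. With 50 bp to each side of the summit GTTCGA was at 36.6% of tRNA peaks.

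With 1 replicate left out, by taking the strongest 2247 peaks of the other, member peaks numbered 254 to 267. The share of tRNA genes bound was 29.1% to 29.9%. The median signal relative to the other peaks was 0.962 to 0.989 at tRNA genes, 1.22 to 1.28 at snoRNA genes and 1.26 to 1.59 at snRNA genes, beside 0.972, 1.21 and 1.497. In the list of replicate 3 snoRNA genes had 1.28 and snRNA genes 1.26, so the order of these 2 biotypes did not hold there. The share of snoRNA genes bound with GTTCGA upstream was 66.7% to 70.8%, and without it 17.1% to 18.9%. With the word GTTCNANNC, added after the data were seen, it was 66.7% and 18.5%, and with 150 bp upstream 58.6% and 19.9%. No paired analysis was possible because there is 1 group. Read depth, which limits every share of genes bound, is unknown.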
